A study of Mus musculus with 27 samples.

Results

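The comparison described here is between 2 libraries of polyadenylated RNA from mouse embryonic stem cells, 1 treated with 1 µM triptolide and 1 untreated, both taken 3 h after release into S phase. They were chosen by their labels, and they are 2 of the 4 RNA libraries and 2 of the 27 samples of the series. The other RNA pair, untreated and 1 µM triptolide at 6 h, serves here as a reference. All 4 libraries came from cells of the genotype KH2:13 Flag-BAP-H3 tags, grown with LIF and inhibitors of MEK and GSK3 and synchronised by double thymidine block. When triptolide was added is not given in the sources used here, so the time in the drug is not known. Each condition was 1 library. Every difference below is therefore a difference between libraries, with no replicate check and no p-value.

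Triptolide is a diterpenoid from a medicinal vine that binds XPB, the DNA translocase within TFIIH, a general transcription factor, and so blocks the start of transcription by RNA polymerase II. Once synthesis stops, the level of an mRNA depends on how fast it decays: short-lived messages, among which are many that encode transcription factors and signalling or cell cycle regulators, disappear first, while long-lived messages persist. Sequencing measures shares. When short-lived messages are lost, the share of long-lived ones goes up even if no molecule of them is added. A fall common to all transcripts is not visible in these values, and no spike-in values were used, so "lower" and "higher" below mean a lower or higher share of the reads. In bulk RNA, fewer cells with a transcript and less of it per cell cannot be told apart.

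The tables list 137271 transcripts by Ensembl identifier. No gene table used here lists any of them (0 of 137271), so genes are not named, gene lists were not formed, and the labelled cell type was not checked against its marker genes. Of the transcripts, 32199 had a mean of 1 CPM or more over the 4 RNA libraries, where CPM is the estimated reads of a transcript per 1000000 reads of its library. These are the transcripts compared. They held 98.5% of the untreated and 98.6% of the treated reads at 3 h. The 3 h libraries were close in depth, with 27443889 reads untreated and 27242760 with triptolide. The limit behind a count of 0 is 3 reads, which is 0.109 CPM in the untreated 3 h library. A ratio against 0 was set at this limit, and 12 transcripts at or under 3 reads in both 3 h libraries got no ratio and were counted as not called. The 6 h libraries had 24913767 reads untreated and 19145129 with triptolide.

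At 3 h the treated and untreated values lay within 1.2-fold of each other for 13078 of the 32199 transcripts (40.6%). Lower with triptolide by at least 2-fold were 2562 transcripts (7.96%), and higher by at least 2-fold were 1731 (5.38%). At least 4-fold lower were 477 (1.48%), and at least 4-fold higher 255 (0.792%). The untreated libraries at 6 h and 3 h, which differ in time and not in the drug, put 1240 transcripts (3.85%) past 2-fold downward and 1389 (4.31%) upward; this pair shares the untreated 3 h library with the triptolide comparison. Lower transcripts were the more numerous in the triptolide pair, and higher ones in the untreated pair. The median log2 ratio with triptolide was -0.038, and its sign depends on the scaling: it was 0.0040 with TMM factors, 0.0047 with DESeq2 size factors and 0.037 when the totals were taken without transcripts at a mean of 500 CPM or more. Of the transcripts past 2-fold, 52.4% were lower with the last of these, against 59.7% with full totals, 55.8% with either TMM or DESeq2 size factors and 69.3% in TPM.

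The share of transcripts past 2-fold was smaller in each more abundant class, in both directions. From 1 to 2 CPM, 1052 of 8092 transcripts passed 2-fold downward (13.0%) and 817 upward (10.1%). The class from 2 to 5 CPM had 10.1% lower and 7.19% higher, and the class from 5 to 10 CPM had 6.92% and 3.52%. From 10 to 20 CPM, 176 of 3771 were lower (4.67%) and 88 higher (2.33%). From 20 to 50 CPM, 101 of 3774 were lower (2.68%) and 36 higher (0.954%), and from 50 to 100 CPM, 37 of 1785 were lower (2.07%) and 10 higher (0.560%). At 100 to 500 CPM 18 of 1386 were lower (1.30%) and 7 higher (0.505%), and at 500 CPM or more 2 of 210 were lower and 1 higher. Lower transcripts outnumbered higher ones by 1.29 to 1 in the scarcest class and by 3.70 to 1 from 50 to 100 CPM, with 2.57 to 1 and 2.00 to 1 in the classes above.

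**Figure D1:**
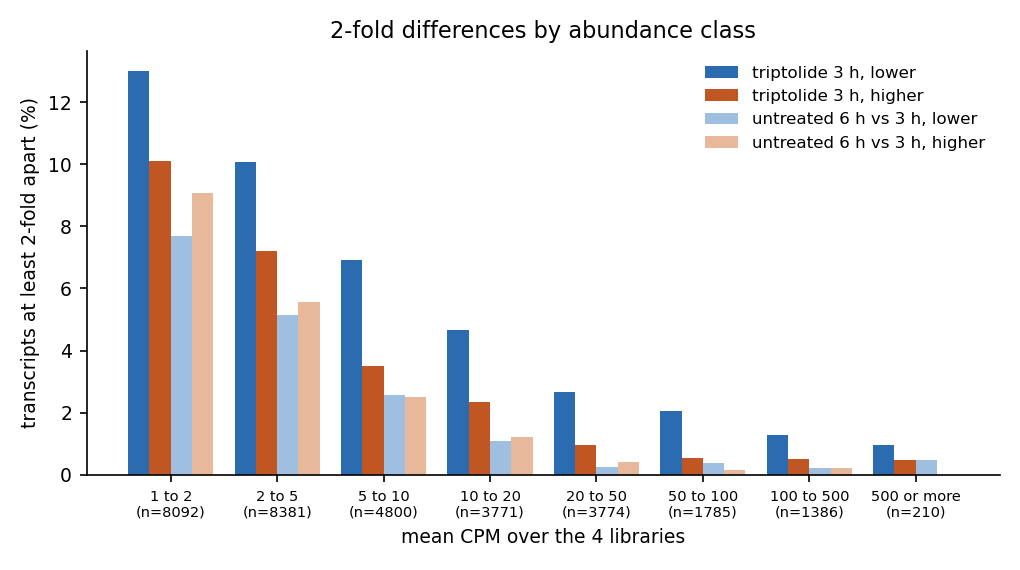
Percentage of transcripts at least 2-fold lower (blue) or higher (orange) in classes of mean CPM over the 4 libraries, for triptolide against untreated at 3 h (dark bars) and for the untreated libraries at 6 h against 3 h (pale bars). From 10 to 20 CPM the triptolide pair had 4.67% lower and the untreated pair 1.09%, while from 1 to 2 CPM the values were 13.0% and 7.70%.

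The untreated pair, which differs in time and shares the untreated 3 h library, gives shares to set beside these. From 1 to 2 CPM it had 7.70% of transcripts at least 2-fold lower and 9.08% higher, against 13.0% and 10.1% with triptolide. Whether the same transcripts were higher in both pairs was not tested. From 20 to 50 CPM the untreated pair had 10 lower (0.265%) and 16 higher (0.424%), against 101 and 36 with triptolide. From 100 to 500 CPM it had 3 and 3, against 18 and 7. The spread differed likewise: the 25th and 75th percentiles of the log2 ratio were 1.04 apart with triptolide and 0.90 apart untreated from 1 to 2 CPM, and 0.49 and 0.32 apart from 20 to 50 CPM.

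Classing by a mean that includes the treated libraries moves a lowered transcript down in class, so the classes were also set by the untreated 6 h library, which is in neither side of the 3 h ratio. Set that way, 147 of 3780 transcripts from 20 to 50 CPM passed 2-fold downward (3.89%) and 23 upward (0.608%), and 33 of 1488 from 100 to 500 CPM were lower (2.22%) and 4 higher (0.269%). From 1 to 2 CPM the order turned, with 536 of 5871 lower (9.13%) and 600 higher (10.2%), and the lower share was larger from 2 to 5 CPM (11.6%) than from 1 to 2 CPM. In the other 7 classes lower transcripts were the more numerous under both ways of classing. Classing by the untreated 6 h library leaves out 2039 compared transcripts that had under 1 CPM there. More of those left out were at least 2-fold higher at 3 h than at least 2-fold lower, so the 2 ways do not cover the same calls.

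**Figure D2:**
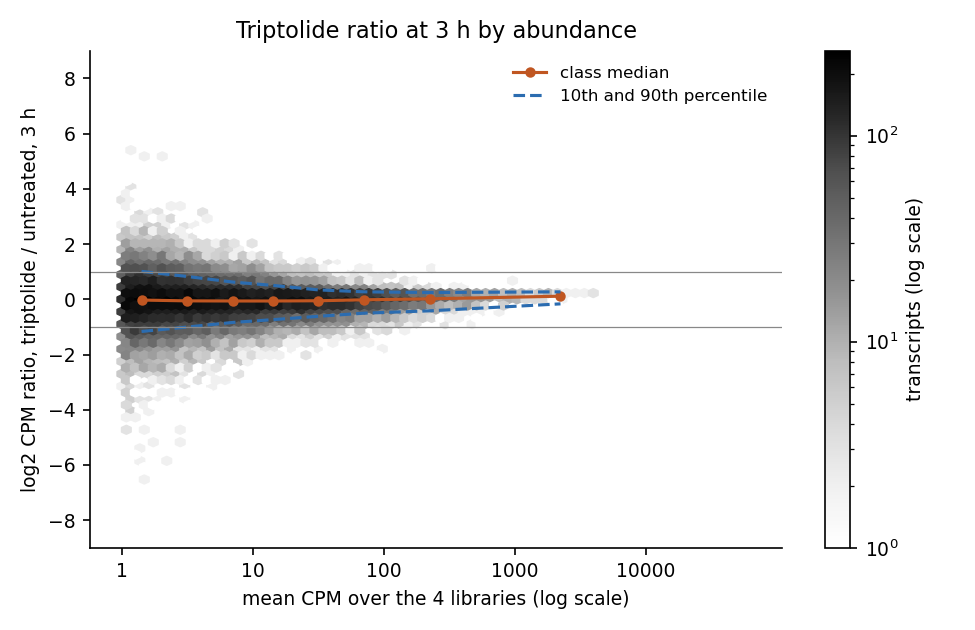
Log2 ratio of CPM with triptolide over untreated at 3 h against mean CPM over the 4 libraries (log scale); grey cells count transcripts, the orange line joins class medians and the blue dashed lines the 10th and 90th percentiles, with grey lines at 2-fold. Below the medians the spread reaches farther: from 20 to 50 CPM the 10th percentile was -0.62 and the 90th 0.34.

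In each class from 1 to 500 CPM the 10th percentile lay farther from 0 than the 90th. From 20 to 50 CPM the median log2 ratio was -0.05, the 10th percentile -0.62 and the 90th 0.34. From 100 to 500 CPM the values were 0.02, -0.42 and 0.25. At 500 CPM or more they were 0.11, -0.17 and 0.27, the highest median of the classes. With a mean of 100 CPM or more, 1208 of 1596 transcripts (75.7%) lay within 1.2-fold, 64 were 1.5-fold to 2-fold lower and 18 were higher by that much.

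Counted in CPM, most of the drop of the lower transcripts lay in those with a mean of 10 CPM or more. The 2562 lower transcripts summed to 29483 CPM untreated and 10786 CPM with triptolide, so their sum dropped by 18697 CPM. Those with a mean of 1 to 10 CPM were 2228 of the 2562 (87.0%) and carried 33.6% of that drop. The 314 from 10 to 100 CPM carried 41.1%, and the 20 at 100 CPM or more carried 25.3%. In the 6 h libraries, which entered the abundance filter but not the 3 h ratio, the same 2562 transcripts summed to 27026 CPM untreated and 9057 CPM with triptolide. The 1731 higher transcripts summed to 5226 CPM untreated and 13147 CPM with triptolide at 3 h, and to 8332 and 19724 CPM at 6 h. The untreated 6 h sum of the lower list was thus near its untreated 3 h sum, while that of the higher list lay between its 3 h values.

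The most abundant class held a larger share of the reads with triptolide, and the other classes a smaller one. The 210 transcripts at 500 CPM or more held 317481 CPM untreated and 351975 CPM with triptolide at 3 h, 10.9% more. At 6 h they held 314468 and 392486 CPM. Each of the other 7 classes held less with triptolide at 3 h, with changes from -2.89% (100 to 500 CPM) to -7.17% (20 to 50 CPM). With TMM factors the class from 100 to 500 CPM was level (0.0021%), the classes below it still held less, and the top class held 14.2% more. With totals taken without the top class, that class from 100 to 500 CPM held 2.28% more and the one from 1 to 2 CPM was level (0.038%), while in TPM the signs were those of the CPM sums and the top class held 6.26% more. In these classes the untreated pair differed by at most 3.02%. Set by the untreated 6 h library, the top class of 220 transcripts held 9.68% more with triptolide at 3 h, the classes from 2 to 500 CPM held less, and the class from 1 to 2 CPM held 3.49% more. In that last class the untreated pair itself differed by -12.1% (6 h against 3 h), since the class was set by its 6 h library.

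**Figure D3:**
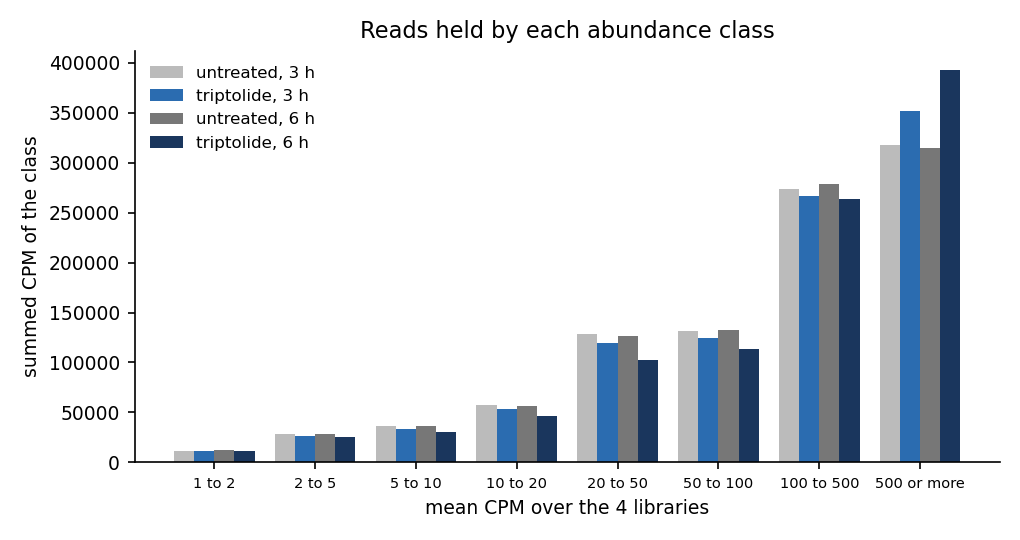
Summed CPM of each abundance class in the 4 libraries (untreated grey, triptolide blue). The class at 500 CPM or more held 317481 and 314468 CPM in the untreated libraries and 351975 and 392486 CPM in the treated ones, at 3 h and 6 h.

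Within this top class 158 transcripts were higher with triptolide at 3 h and 52 lower, nearly all by less than 2-fold. The 10 most abundant transcripts of the untreated 3 h library gained 19615 CPM between them, of the 34494 CPM gained by the class, and 8 of the 10 were higher. The first of them, ENSMUST00000198477.1 (1849 nt), named after its values were seen because of its rank, held 5.04% of the untreated reads at 3 h (95% Clopper-Pearson interval 5.03% to 5.05%, counting error only) and 5.92% of the treated ones (5.91% to 5.93%). Its levels were 50372 and 50956 CPM untreated at 3 h and 6 h, and 59199 and 58395 CPM with triptolide. Both treated values lay above both untreated ones. In TPM the difference was smaller at 3 h, with 31062 TPM untreated and 34314 TPM treated (TPM divides reads by effective length and scales them to a common sum). At 6 h its TPM was the other way round, 31840 untreated and 29776 treated. The second and the fourth in rank, of 3756 and 1794 nt, were 1.18-fold and 1.14-fold higher at 3 h. A transcript of 1582 nt, the seventh in rank, had the greatest fold of the 10, from 5017 to 6936 CPM (1.38-fold), with 4703 CPM untreated and 7428 CPM treated at 6 h. The eighth, of 1920 nt, was lower with triptolide at 3 h, 3846 against 4382 CPM. Fewer transcripts made up the treated library: 879 transcripts held 50% of the reads in each untreated library, 713 in the triptolide library at 3 h and 498 in that at 6 h.

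The 20 transcripts with a mean of 100 CPM or more that were at least 2-fold lower at 3 h form the clearest group of early losses by read support. They were chosen for this fold, so their 3 h values are a description. In 18 of the 20 the untreated libraries lay close, with log2 ratios of 6 h over 3 h from -0.18 to 0.33. These 18 ranged from 1530 to 4856 nt. Their lowest, median and highest levels were 159, 254 and 1434 CPM in the untreated 3 h library and 153, 249 and 1332 CPM in the untreated 6 h library. With triptolide at 3 h the values were 41.8, 90.8 and 712 CPM. In the 6 h triptolide library, which entered the mean CPM but not the 3 h ratio, they were 13.9, 34.6 and 631 CPM. With library totals, all 18 were at least 2-fold lower at 6 h too, and all 18 were farther below untreated at 6 h than at 3 h. At least 2-fold lower at 3 h against both untreated libraries were 16. The member of 2019 nt lay near these limits, with log2 ratios of -1.01 at 3 h and -1.08 at 6 h. The TMM factors were 0.897 with triptolide and 1.04 untreated at 6 h, and 1.02 and 1.05 at 3 h. With them this member would be under 2-fold at both times and nearer to untreated at 6 h. As background, 10.9% of all transcripts at 100 CPM or more were at least 2-fold lower at 6 h (174 of 1596).

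**Figure D4:**
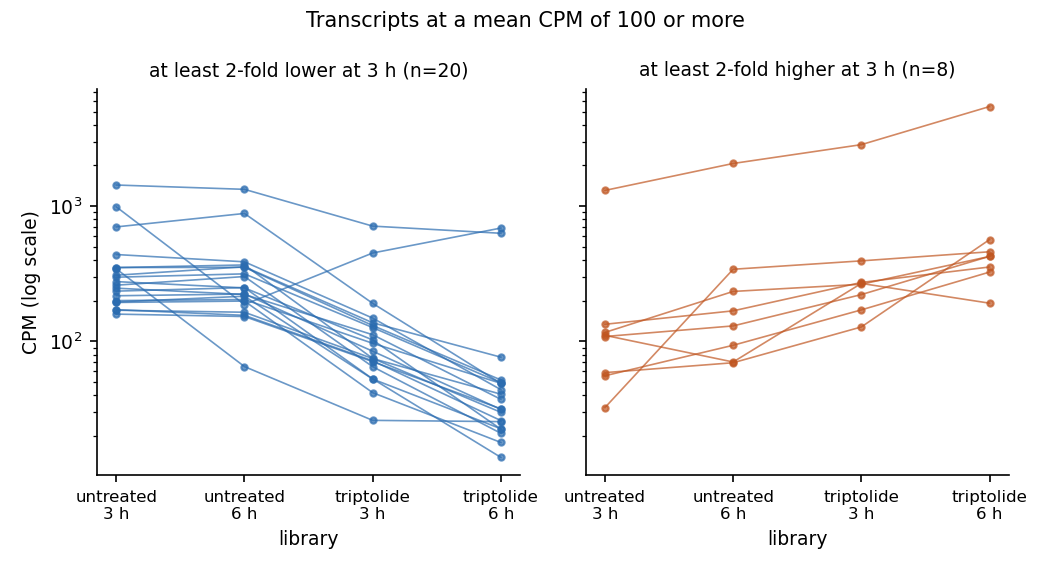
CPM (log scale) in the 4 libraries of the 20 transcripts at least 2-fold lower (blue) and the 8 at least 2-fold higher (orange) with triptolide at 3 h, all with a mean of 100 CPM or more; each line is a transcript. Of the lower ones 18 run flat between the untreated libraries and lie below them in both treated libraries, while 2 fall steeply between the untreated libraries.

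Single members show the size of the early loss. A transcript of 2057 nt had 352 and 368 CPM in the untreated 3 h and 6 h libraries and 74.9 and 29.9 CPM in the treated ones, 4.70-fold lower at 3 h. A transcript of 4660 nt had 235 and 250 CPM untreated and 52.9 and 13.9 CPM treated, a difference of 4.46-fold at 3 h and of 18.0-fold at 6 h. One of 2211 nt, more abundant, had 703 and 884 CPM untreated and 191 and 49.0 CPM treated, 3.67-fold lower at 3 h. In these 3 the order was the same: both untreated libraries highest, then the drug at 3 h, then the drug at 6 h. The most abundant of the 18, of 2019 nt, changed less between the 3 h and 6 h pairs. It had 1434 and 1332 CPM untreated and 712 and 631 CPM treated. With library totals the difference was similar in both pairs, 2.01-fold at 3 h and 2.11-fold at 6 h.

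In the remaining 2 of the 20, of 478 and 661 nt, the untreated libraries were far apart. The first had 344 CPM untreated at 3 h and 65.2 CPM untreated at 6 h, with 26.1 and 25.5 CPM treated. The second had 990 and 187 CPM untreated and 451 and 689 CPM treated. Both were 5.28-fold higher untreated at 3 h than untreated at 6 h, and the second was higher with the drug at 6 h. The first was more than 2-fold below both untreated libraries at 3 h, while the second lay between them. None of the 20 had whole-number counts in all 4 libraries, as happens where reads shared with other transcripts are divided by an estimate, so their values carry that uncertainty too.

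The 8 transcripts at 100 CPM or more that were at least 2-fold higher at 3 h were less uniform. In 2 of them the untreated libraries were at least 2-fold apart: a transcript of 681 nt had 32.4 CPM untreated at 3 h but 342 CPM untreated at 6 h, beside 394 and 460 CPM treated, and one of 2824 nt had 117 and 234 CPM untreated and 265 and 425 CPM treated. The other 6 had 55.8 to 1308 CPM in the untreated 3 h library and 128 to 2851 CPM in the treated one, and all 6 were at least 2-fold higher at 6 h. As background, 2.19% of all transcripts at 100 CPM or more were at least 2-fold higher at 6 h (35 of 1596). The most abundant, of 3329 nt, had 1308 and 2069 CPM untreated and 2851 and 5455 CPM treated. Of the 8, 1 was at least 2-fold higher than both untreated libraries, a transcript of 830 nt with 111 and 70.5 CPM untreated and 269 and 192 CPM treated.

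The same contrast held over larger lists. Against both untreated libraries, which share the treated library as their numerator, 1695 transcripts (5.26% of those compared) lay past 2-fold downward and 664 (2.06%) upward with the drug at 3 h. These were 66.2% of the lower and 38.4% of the higher transcripts. At 100 CPM or more, 17 of 20 lower transcripts and 1 of 8 higher ones met this condition, and at 10 CPM or more 246 of 334 and 48 of 142 did. The untreated 6 h library is 3 h later in S phase, so transcripts that change with time can fail the condition too. Where the untreated libraries lay within 1.2-fold of each other (7725 of the 10926 transcripts at 10 CPM or more), 194 passed 2-fold downward (2.51%) and 38 upward (0.492%).

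The early losses were mostly still losses in the 6 h pair, which shares no library with the 3 h pair. At 6 h 7955 transcripts (24.7%) passed 2-fold downward and 3434 (10.7%) upward. These and the other 6 h values use library totals. The TMM factors lay farther apart at 6 h (0.897 with triptolide, 1.04 untreated) than at 3 h (1.02 and 1.05). TMM scaling would thus raise the 6 h ratios by more than the 3 h ratios. Calls at 6 h with TMM factors are not given here. Of the transcripts lower at 3 h, the share also lower at 6 h was 55.0% from 1 to 2 CPM (579 of 1052), 71.4% from 5 to 10 CPM (237 of 332), 84.1% from 10 to 20 CPM (148 of 176) and 87.1% from 20 to 50 CPM (88 of 101). From 50 to 100 CPM it was 83.8% (31 of 37), from 100 to 500 CPM 18 of 18, and at 500 CPM or more 1 of 2. In the same classes 26.2%, 26.9%, 26.3%, 22.3%, 17.6%, 12.0% and 3.33% of all transcripts were lower at 6 h. Lower at 3 h and at least 2-fold higher at 6 h were 81 of 1052 transcripts from 1 to 2 CPM, 0 of 101 from 20 to 50 CPM, 5 of 37 from 50 to 100 CPM, 0 of 18 from 100 to 500 CPM and 1 of 2 at 500 CPM or more. Among all transcripts of these 5 classes, 17.2%, 2.97%, 2.35%, 1.80% and 4.76% were higher at 6 h. The 5 of 37 from 50 to 100 CPM thus lay above the share of their class, and the 81 of 1052 below it. Of the 334 lower at 10 CPM or more, 266 were farther below untreated at 6 h, and the median log2 ratio of the 334 went from -1.28 at 3 h to -2.28 at 6 h. With library totals, the median over all transcripts at 10 CPM or more was -0.03 at 3 h and -0.22 at 6 h. Both would be higher with TMM factors. In the full list of 2562 the course was weaker, with 1356 (52.9%) farther below at 6 h and medians of -1.37 and -1.60. Seen from 6 h, the early losses were a minority: those also lower at 3 h made up 12.3% of the 2322 transcripts lower at 6 h with 10 CPM or more. For the higher list, 91 of 142 at 10 CPM or more (64.1%) were also higher at 6 h, where 3.84% of all such transcripts were.

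Length went with the 3 h ratio among abundant transcripts. At a mean of 100 CPM or more, the 83 transcripts under 500 nt had a median log2 ratio of 0.15, against 0.14 in the 243 of 500 to 1000 nt and 0.06 in the 416 of 1000 to 2000 nt. It was -0.02 in the 552 of 2000 to 4000 nt, -0.03 in the 254 of 4000 to 8000 nt and -0.07 in the 48 of 8000 nt or more. In the same order the untreated pair had -0.05, -0.0086, 0.04, 0.03, -0.02 and -0.06. With library totals, the pairs thus stood farthest apart in the short classes. Under 500 nt the 25th to 75th percentiles were 0.04 to 0.22 with triptolide and -0.14 to 0.06 untreated. The rescaled medians that follow are for the triptolide pair only, so the contrast with the untreated pair is not given under other scalings. A scaling with 1 factor per library shifts all length classes alike: with TMM factors the medians of 2000 to 4000 nt and of 4000 to 8000 nt became 0.02 and 0.01, and with totals without transcripts at 500 CPM or more that of 8000 nt or more became 0.0040. In TPM, which takes each library's fragment length into account, the order was the same, from 0.07 under 500 nt to -0.16 at 8000 nt or more. The mean fragment length implied by the effective lengths was 85.9 nt with triptolide at 3 h, 83.8 nt untreated at 3 h and 84.8 nt untreated at 6 h, and its part in the length order was not tested beyond TPM.

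**Figure D5:**
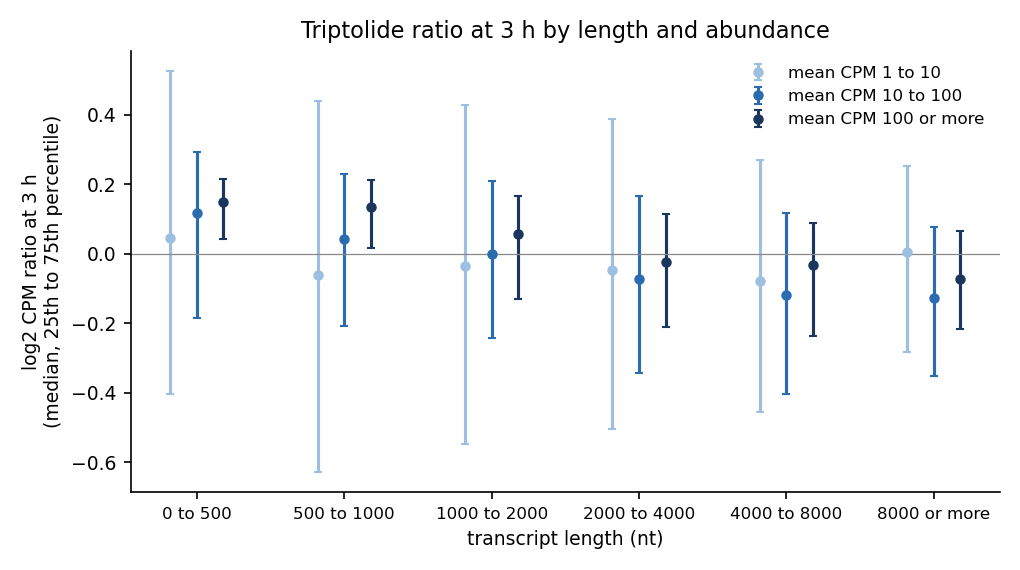
Median log2 CPM ratio of triptolide over untreated at 3 h by transcript length, for 3 ranges of mean CPM; bars run from the 25th to the 75th percentile over transcripts. At 100 CPM or more the medians go from 0.15 under 500 nt to -0.07 at 8000 nt or more, and the bars of the 1 to 10 CPM range are the widest.

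From 10 to 100 CPM the medians likewise went from 0.12 under 500 nt to -0.13 at 8000 nt or more, with -0.0073 and -0.06 in the untreated pair. From 1 to 10 CPM no such order appeared, the medians lying between -0.08 and 0.05. The length classes also differed in the share past 2-fold. From 1 to 10 CPM the higher share went down at each length step, from 12.6% under 500 nt to 1.14% at 8000 nt or more. The lower share there was 9.46% under 500 nt, went up to 15.5% in the class of 500 to 1000 nt, and then went down to 2.46% in the longest class. The untreated pair had a like pattern. Its higher transcripts were 95 of 1194 under 500 nt and 3 of 528 in the longest class, against 150 and 6 with triptolide. Its lower ones were 74 of 1194, 343 of 4049 and 3 of 528 in the 3 classes named, against 113, 626 and 13. From 10 to 100 CPM, 135 of 3504 transcripts of 2000 to 4000 nt were at least 2-fold lower (3.85%), against 5 of 387 at 8000 nt or more (1.29%) and 9 of 251 under 500 nt (3.59%). In the same order the untreated pair had 21, 0 and 8 lower. Higher ones from 10 to 100 CPM were more frequent in short transcripts, 6.77% under 500 nt (17 of 251) and 0.258% at 8000 nt or more (1 of 387). The untreated pair had 4 and 0 higher there. In the top class, 57 of the 62 transcripts of 500 to 1000 nt were higher with triptolide at 3 h by any amount, against 4 of the 12 of 4000 to 8000 nt.

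Transcripts whose estimated counts were whole numbers in all 4 libraries, as happens when no read is divided, were taken as less affected by that division. There were 317, of which 123 had a mean of 10 CPM or more. The largest counts, however, appear to be given to 6 digits only, and would then be whole numbers even with divided reads. This touches the 6 of the 123 at 500 CPM or more, all of them higher with triptolide at 3 h. Whether their reads were divided is not known. Of the 123, 59 lay below untreated and 64 above it at 3 h, with a median log2 ratio of 0.0054 and the 25th and 75th percentiles at -0.29 and 0.19. At least 1.5-fold lower were 11 and at least 1.5-fold higher 1; the untreated pair had 5 and 1. At least 2-fold lower were 2, and none was 2-fold higher (0 of 123), where the untreated pair had 1 and 0. Over all transcripts at 10 CPM or more the shares were 3.06% lower and 1.30% higher.

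These 2 are named by the rule given in the methods. ENSMUST00000060427.4 (1522 nt) had 98.5 CPM in each untreated library. With the drug it had 22.7 CPM at 3 h, then 12.5 CPM in the 6 h library. Its 3 h log2 ratio was -2.12 (interval from counting error -2.25 to -1.99), or 4.34-fold lower, the greatest loss among the 123. ENSMUST00000052631.7 (1621 nt) had 21.0 and 20.03 CPM in the untreated libraries at 3 h and 6 h, and 8.77 and 7.00 CPM in the treated ones. Its log2 ratio was -1.26 at 3 h (interval -1.48 to -1.04), or 2.40-fold lower, and the 6 h difference was 2.86-fold. In both, the untreated libraries lay close together and the treated values below them at each time. No whole-number transcript of 10 CPM or more passed 2-fold upward, and the highest of them, named after its values were seen, was ENSMUST00000049699.8 (3255 nt). It had 23.2 and 15.0 CPM untreated and 41.8 and 41.0 CPM treated, 1.80-fold higher at 3 h (log2 ratio 0.85, interval 0.71 to 0.99). Its untreated values differed with a log2 ratio of -0.63 from 3 h to 6 h, while its treated values stayed level.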

How the data were processed

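Per the file headers, the deposited tables hold, for each transcript, estimated counts of reads and TPM values beside its length and effective length, in the layout of the Salmon quantifier; its version and transcript set: not given in the sources used here. The submitters' processing notes name FastQC 0.11.4, Bowtie 1.0.0 and SAMtools 1.0.6, without saying what each did for RNA. Deposited TPM values are scaled to the same sum in each library by the authors; the deposited estimated counts are not normalized.

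Estimated counts were rounded and divided by the library sum to give CPM. Kept were transcripts whose CPM averaged at least 1 over the 4 RNA tables, and log2 ratios of CPM formed with a count of 0 set to 3 reads. The call is a fold of 2 or more. Intervals of ratios are 95% exact conditional binomial, and those of shares Clopper-Pearson; both cover counting error only, since no molecular identifiers are named for these reads, which can then repeat a molecule. Whole-number transcripts had estimates within 1e-06 of a whole number in all 4 tables.

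Named transcripts: up to 2 per direction among whole-number transcripts averaging at least 10 CPM, past 2-fold, with the same direction under library totals, TMM and DESeq2 size factors, ranked by the interval bound nearest to no change; 2 others were chosen after their values were seen. The comparison, classes and rules were chosen with earlier results of these data known. Results planned per gene and for gene lists were not run, for want of gene names. The ratio script was tested on simulated counts. Tools were Python 3.11.15, scipy 1.17.1, edgeR 4.0.16 and DESeq2 1.42.0; the last 2 gave scaling factors only.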

Additional observations from a re-analysis of the deposited data

Results flagged for a closer look

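Effective lengths, which enter no ratio of CPM, imply a mean fragment length of 85.9 nt in the 3 h triptolide library, above 83.8 nt and 84.8 nt in the untreated libraries at 3 h and 6 h. In TPM, which takes effective length into account, the median log2 ratio at 3 h was -0.12, and its part in the ratios was not tested beyond TPM.

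The transcript of 661 nt with a mean of 100 CPM or more was lower with triptolide at 3 h (log2 ratio -1.13) and higher at 6 h (log2 ratio 1.88). With 1 library per condition this difference between times was not tested. Its untreated values were 990 CPM at 3 h and 187 CPM at 6 h.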

How the results depend on the processing

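No paired analysis was possible because the groups share a single replicate number; with 1 library per condition none could be left out, and alternatives per gene were not run. The median log2 ratio of -0.038 changed sign with TMM factors (0.0040), DESeq2 size factors (0.0047) and, an alternative chosen after seeing the data, totals without transcripts at 500 CPM or more (0.037), and was -0.12 in TPM; the cause was not tested. The counts of 2562 lower and 1731 higher transcripts stayed within 1.5 times under all scalings, thinning and unrounded estimates. Other filters and limits changed them by construction: 7504 and 6066 with no filter, 666 and 311 with the CPM minimum raised to 5, 5839 and 4089 at 1.5-fold, 477 and 255 at 4-fold, and 992 and 497 with the counting interval wholly past 2-fold. Chosen after seeing the data were a CPM minimum of 10 (334 and 142), whole-number transcripts (15 and 5), both untreated libraries as reference (1695 and 664) and untreated libraries within 1.2-fold of each other (900 and 339). Lower transcripts were the more numerous under each of these settings. By class, the share at least 2-fold lower moved by over 1.5 times from 1.30% to 2.22% at 100 to 500 CPM with classes set by the untreated 6 h library. Among whole-number transcripts it was 3.12% (2 of 64) instead of 10.1% from 2 to 5 CPM, 2.38% (1 of 42) instead of 4.67% from 10 to 20 CPM and 0% (0 of 49) instead of 2.68% from 20 to 50 CPM, and these classes are small. The ratios of the 4 named transcripts kept their sign under TMM and size factors.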
